A study of Canis lupus familiaris with 21 samples.

Results

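The 10 genes described here carry out or control the presentation of peptides on major histocompatibility complex (MHC) class I in canine cutaneous histiocytoma (CCH), a skin tumor of young dogs that arises from Langerhans-type dendritic cells and regresses on its own as lymphocytes move in. They were chosen by symbol among the 21399 genes of the deposited count tables: the class I heavy chains DLA88, DLA-64 and DLA-79 (DLA stands for dog leucocyte antigen), the light chain B2M, the peptide transporter subunits TAP1 and TAP2, the loading proteins TAPBP and PDIA3, the immunoproteasome subunit PSMB9, and the transcriptional activator NLRC5. Each of the 10 had 1 entry. The measurement was QuantSeq 3′ mRNA sequencing of formalin-fixed, paraffin-embedded tumors from dogs, with no treatment named in the labels. Group 1 held 5 tumor cell-rich samples of stage 1 (dogs of 0.5 to 5 years, with no age for 1), and group 2a held 5 tumor cell-rich samples of stage 2 (0.6 to 3 years). Group 2b held 6 lymphocyte-rich samples of stage 2 (0.3 to 6 years), and group 3 held 5 lymphocyte-rich samples of stage 3 (1.5 to 9 years). In group 2b, 4 of the 6 samples were pools of 3 to 4 dogs, so their spread is not that of single dogs. The areas were enriched for one cell type and not pure, so more cells of a type and more RNA per cell cannot be told apart anywhere below.

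MHC class I shows short peptides from inside a cell to CD8 T cells. The peptides are cut by the proteasome, whose interferon-inducible form carries PSMB8, PSMB9 and PSMB10. They are pumped into the endoplasmic reticulum by the TAP1 and TAP2 transporter and fitted onto the heavy chain and B2M with the help of tapasin (TAPBP), PDIA3 and calreticulin. NLRC5 sits at the promoters of some of these genes, the heavy chains among them. Interferon gamma raises most genes of the pathway, in part through IRF1.

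The libraries held 2113393 to 3559404 counted reads. The share of RNA fragments over 200 bases long (DV200) was lowest in group 1, at 64.5% to 71.2%, and was 70.5% to 76.9% in the other groups. DV200 values and ages are those of the labels, from which the study's own sample list differs for single samples. That list also gives an RNA quality number, which was not used here. It was lower in every sample of group 2b than in any sample of group 2a. The summed level of 10 T cell markers ranged from 62.4 to 2159 normalized counts in group 1, from 539 to 1673 in group 2a, from 3064 to 4709 in group 2b and from 3240 to 5287 in group 3, and the lymphocyte-rich samples did not overlap the tumor cell-rich ones. The sum of 10 histiocyte markers was between 4163 and 7998 in all 21 samples, and 1 of them, CD1A6, was at 0 throughout groups 1 and 3.

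DLA88 was among the genes with the most reads. It took 0.287% to 0.709% of all counts in the tumor cell-rich samples and 0.704% to 1.17% in the lymphocyte-rich ones. By count it ranked 4th to 28th in the 10 tumor cell-rich samples and 1st to 4th in the 11 lymphocyte-rich samples. Counts were not divided by gene length, since the method reads transcript ends. The 10 genes together made up 0.418% to 1.37% of the counts of a sample.

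**Figure D1:**
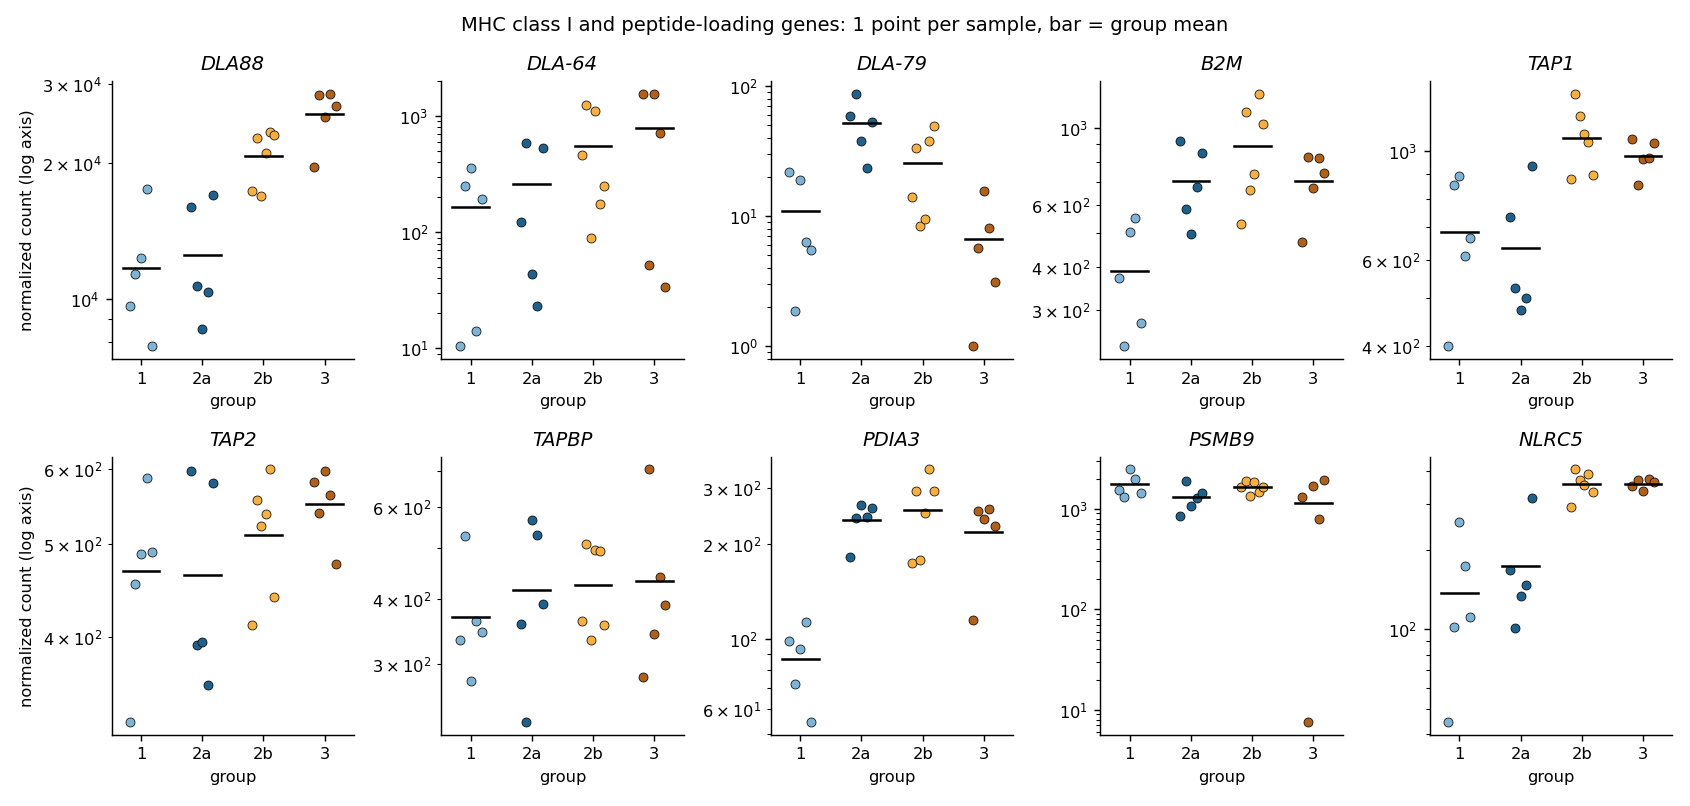
Normalized counts (log axis) of the 10 genes in the 21 samples by group, with 1 point per sample and the group mean as a bar. PDIA3 lay between 54.6 and 113 in group 1 and between 182 and 264 in group 2a, PSMB9 had 1 sample of group 3 at 7.55, and DLA-64 spread over more than a factor of 10 inside every group.

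The groups were compared by edgeR's quasi-likelihood test on the raw counts, and a gene counted as called when its p, adjusted by Benjamini-Hochberg over all genes tested, was 0.05 or less. The tumor cell-rich step, which sets group 2a against group 1, called 1 of the 10 genes, PDIA3, where 0.527% of the 11200 genes tested were called. The lymphocyte-rich step, which sets group 3 against group 2b, called 0 of 10, where 0.111% of 11685 were called. In that comparison 2 of the 10 had an unadjusted p under 0.05, as had 1527 of all genes, and limma also called 0 of the 10. DESeq2 called 0 of them too, where 185 of all genes were called, but gave no adjusted p for DLA-79. In the area comparison, which sets group 2b against group 2a within stage 2, DLA88, TAP1 and NLRC5 were called, all higher in group 2b, which is 3 of 10 where 16.5% of 11545 were called. In the end comparison, which sets group 3 against group 1 and so differs in both stage and area, DLA88, B2M, PDIA3 and NLRC5 were called, all higher in group 3. That is 4 of the 9 tested, where 13.9% of 11470 were called; DLA-79 had too few counts to be tested there. The median log2 fold change of the 10 genes was 0.26 in the tumor cell-rich step, -0.06 in the lymphocyte-rich step, 0.32 in the area comparison and 0.87 over the 9 tested in the end comparison, while that of all genes tested was between -0.02 and 0.01. The comparisons share samples: group 2a stands in the first and the third, and groups 1, 2b and 3 also stand in more than one.

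**Figure D2:**
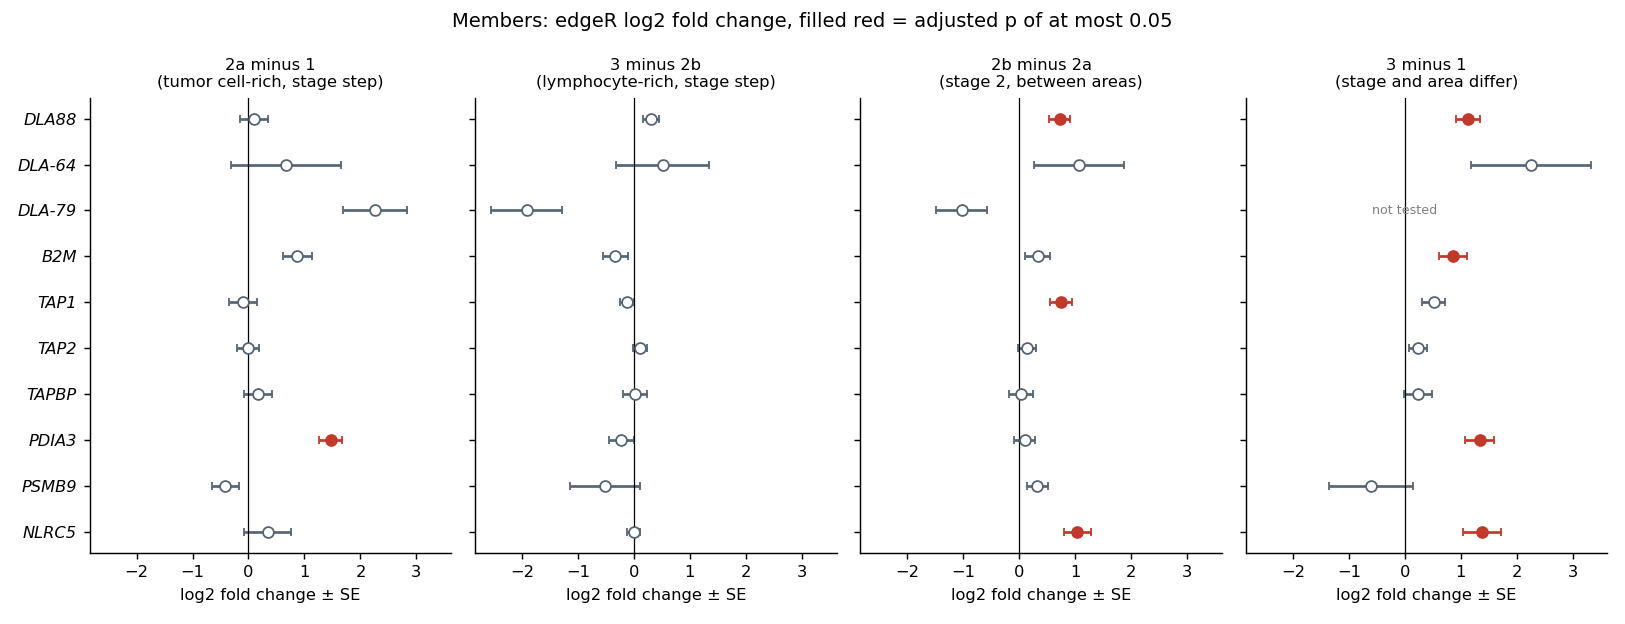
The log2 fold change of each gene in the 4 comparisons (horizontal axis, edgeR, bars are ± 1 SE), with filled red points for an adjusted p of at most 0.05. PDIA3 is red in the tumor cell-rich step, no gene is red in the lymphocyte-rich step, and all red points lie above 0.

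DLA88 encodes the main polymorphic class I heavy chain of the dog (chromosome 12, 1031738 to 1034937 in UU_Cfam_GSD_1.0). Its normalized counts were 9624, 11355, 12311, 17510.5 and 7838 in group 1 and 15974, 10701, 8574, 10368 and 16992 in group 2a. They were 16888 at the lowest, 21894 at the median and 23431 at the highest in group 2b. In group 3 they were 19565, 28301, 25287, 28509 and 26768. The tumor cell-rich groups lay over each other, 5 of 6 samples of group 2b lay above all of group 2a, and group 3 lay wholly above group 1. DLA88 was 1.65-fold higher in group 2b than in group 2a (log2 fold change 0.72, SE 0.19, edgeR adjusted p = 0.0171) and 2.19-fold higher in group 3 than in group 1 (1.13, SE 0.22, adjusted p = 0.00728). The tumor cell-rich step gave 0.10 (SE 0.25, adjusted p = 0.869) and the lymphocyte-rich step 0.31 (SE 0.14, unadjusted p = 0.0497, adjusted p = 0.381), where 4 of 5 samples of group 3 lay above every sample of group 2b. Sample titles, column names and the study's own sample list put the tumor cell-rich samples in the groups used here. The study's text assigns the heavy-chain levels of these groups in the opposite order. If the groups were exchanged, every sign in the tumor cell-rich step would turn. The area comparison, the end comparison and the comparison of the stage steps given further on would change too.

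Of the reads on the 3 heavy-chain genes, DLA88 took 92.6% to 99.9% in every sample. DLA-64 (chromosome 12, 1122932 to 1126491), a less polymorphic class I gene, varied widely. Its normalized counts were 10.4, 249, 358, 14.2 and 194 in group 1, 123, 585, 43.3, 23.4 and 533 in group 2a, and 1562, 51.9, 1554, 719 and 33.5 in group 3. In group 2b they ran from 88.4 over a median of 354 to 1238. High and low samples stood side by side in all 4 groups, with a ratio of highest to lowest between 14.0 (group 2b) and 46.6 (group 3). No comparison called it, and the largest value, 2.25 (SE 1.07) on the log2 scale in the end comparison, had an edgeR adjusted p of 0.181. Class I heavy chains are alike in sequence and differ between dogs, and how the counting treated reads that match several genes is not given in the sources used here, so the split of reads between DLA88, DLA-64 and DLA-79 is uncertain.

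DLA-79 lies apart from the other class I genes, on chromosome 18 (41564328 to 41567490), and was the scarcest of the 10. It had 21.7, 1.87, 19.1, 6.30 and 5.46 normalized counts in group 1 and 59.4, 87.5, 37.8, 23.4 and 53.3 in group 2a. In group 2b it had 8.38 at the lowest, 23.8 at the median and 49.7 at the highest, and in group 3 it had 0.999, 5.66, 15.5, 8.06 and 3.14. All 5 samples of group 2a lay above all 5 of group 1, and 4 of 5 samples of group 3 lay below all 6 of group 2b. The log2 fold change was 2.26 (SE 0.57) in the tumor cell-rich step (edgeR adjusted p = 0.0816) and -1.91 (SE 0.63) in the lymphocyte-rich step (adjusted p = 0.237), so neither step was called. DESeq2 called the first of these (adjusted p = 0.0041), as did a fit of all 4 groups together (edgeR adjusted p = 0.04777). The direction of the first step, and with it the comparison of the steps given further on, rests on the group labels. The study's text departs from these labels for the heavy chains, as said for DLA88. In 3 of the 21 samples DLA-79 rested on 3 reads or fewer, close to the smallest count the depth can show. It met the count filter (at least 10 counts in at least 5 samples) mainly through the group where it was higher. That was group 2a in the tumor cell-rich step and group 2b in the lymphocyte-rich step. In the latter only 6 of the 11 fits with a sample left out could test DLA-79.

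B2M, the light chain shared by all class I molecules (chromosome 30, 11616856 to 11621737), was lowest in group 1. Its normalized counts were 370.4, 236, 503, 552 and 275 in group 1, 915, 585, 495, 677 and 849 in group 2a and 469.6, 825, 670.2, 822 and 744 in group 3. In group 2b they were 530.3, 882 and 1254 at the lowest, median and highest. In both group 2a and group 3, 4 of 5 samples lay above every sample of group 1. B2M was 1.82-fold higher in group 3 than in group 1 (log2 fold change 0.87, SE 0.25, edgeR adjusted p = 0.0388). The tumor cell-rich step gave nearly the same size (0.87, SE 0.25), which was not called (adjusted p = 0.111). The call was lost without any 1 of 7 of the 10 libraries: replicates 1, 2 or 5 of group 1, or replicates 2, 3, 4 or 5 of group 3, with adjusted p between 0.0528 and 0.0903 and a log2 fold change between 0.72 and 0.87.

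The count of DLA88 over that of B2M in the same sample does not depend on how samples are scaled. Group 1 ran from 24.5 to 48.1, group 2a from 15.3 to 20.01, group 2b from 18.7 to 32.7 and group 3 from 34.3 to 41.7. All samples of group 2a lay below all of group 1, and all of group 3 lay above all of group 2b. This ratio was singled out after its values had been seen and was not tested.

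**Figure D3:**
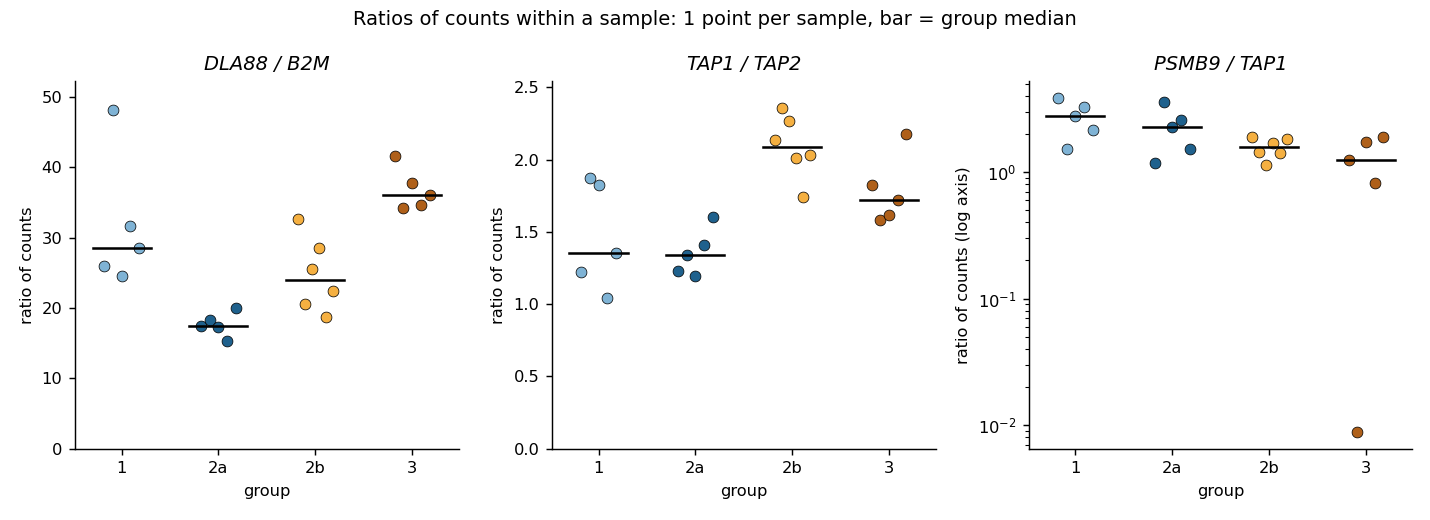
Ratios of raw counts of 2 genes within a sample, with 1 point per sample and the group median as a bar; the axis for PSMB9 over TAP1 is logarithmic. DLA88 over B2M was 15.3 to 20.01 in group 2a and 34.3 to 41.7 in group 3, and 1 sample of group 3 had a PSMB9 to TAP1 ratio of 0.0088.

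Of the subunits of the peptide transporter, TAP1 was called between areas and TAP2 was not; the difference between these 2 results was not tested. TAP1 (chromosome 12, 2578932 to 2587126) had 399, 853, 892, 611 and 663 normalized counts in group 1, 735, 525, 473, 502 and 931 in group 2a and 1060.2, 855, 966, 968 and 1038 in group 3. In group 2b it had 878 at the lowest, 1062 at the median and 1311 at the highest. Replicate 5 of group 2a reached into the range of group 2b, and the 5 samples of group 3 lay close together. TAP1 was 1.67-fold higher in group 2b than in group 2a (log2 fold change 0.74, SE 0.19, edgeR adjusted p = 0.0151). In the end comparison it was 0.52 (SE 0.20, adjusted p = 0.108).

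TAP2 (chromosome 12, 2562598 to 2572236) stayed between 326 and 599 normalized counts in all 21 samples, with the lowest group mean, 464 ± 114 (SD, n = 5), in group 2a and the highest, 551 ± 46.8 (SD, n = 5), in group 3. Its largest log2 fold change was 0.23 (SE 0.17, edgeR adjusted p = 0.382), in the end comparison. For TAP1 over TAP2, group 1 ran from 1.04 to 1.87, group 2a from 1.20 to 1.60, group 2b from 1.74 to 2.36 and group 3 from 1.58 to 2.18. Every sample of group 2b lay above every sample of group 2a in this ratio, which was looked at after the values were known and was not tested.

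Of the loading proteins, tapasin (TAPBP, chromosome 12, 2895118 to 2906650), which bridges the transporter and the heavy chain, was called in no comparison. Its normalized counts ran from 232 to 706 over the 21 samples, and its log2 fold changes were between 0.02 and 0.23 in the 4 comparisons, with edgeR adjusted p of 0.597 or more. TAPBP had its highest value, 706, in replicate 2 of group 3.

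PDIA3 (also called ERp57, chromosome 30, 10775223 to 10800728), the thiol oxidoreductase of the loading complex and a general folding enzyme, set group 1 apart. Its normalized counts were 98.3, 72.1, 92.9, 113 and 54.6 in group 1 and 182, 241, 264, 243 and 259.5 in group 2a. In group 2b they were 174, 271 and 344 at the lowest, median and highest. In group 3 they were 115, 254, 239.6, 257 and 228. Group 1 lay below every other sample, and the other 3 groups overlapped each other. PDIA3 was 2.76-fold higher in group 2a than in group 1 (log2 fold change 1.47, SE 0.21, edgeR adjusted p = 0.0334) and 2.53-fold higher in group 3 than in group 1 (1.34, SE 0.26, adjusted p = 0.00734).

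The call of PDIA3 in the tumor cell-rich step was lost without replicates 2, 3 or 5 of group 1 or replicates 2, 3, 4 or 5 of group 2a, with adjusted p from 0.0597 to 0.0952 and log2 fold changes from 1.34 to 1.49. With DV200 as a covariate the log2 fold change was 1.26 (SE 0.30, adjusted p = 0.473) and no gene at all was called. The part of RNA quality, taken here as DV200, which was lowest in group 1, was not tested beyond that fit. The summed level of 10 keratinocyte markers ran from 983 to 13556 in group 1 and from 288 to 3186 in group 2a. Of 9 tested, 1 was called lower, PPL, where 0.527% of all genes tested were called. The part of these markers in the difference was not tested.

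Counting genes whose groups did not overlap, PDIA3 and DLA-79 made 2 of 10 in the tumor cell-rich step, where 5.65% of all genes tested did not overlap. DLA-79 met the count filter there mainly through group 2a, where it was higher. The lymphocyte-rich step had 0 of 10 (2.11% of all genes) and the area comparison 0 of 10 (10.5%). In the end comparison DLA88, PDIA3 and NLRC5 did not overlap, 3 of 9 (11.9%).

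PSMB9 (chromosome 12, 2587464 to 2593086), the interferon-inducible subunit that takes the place of PSMB6 in the immunoproteasome, lies next to TAP1, with 337 bases between the 2 genes. Its normalized counts were 1539, 1303, 2469, 1992 and 1432 in group 1 and 858, 1888, 1073, 1284 and 1425 in group 2a. In group 2b they were 1334, 1652 and 1872 at the lowest, median and highest. In group 3 they were 1319, 7.55, 1677, 789.8 and 1945. Replicate 2 of group 3 thus held 8 reads, while each of the other 20 samples held 784 or more. In that library TAP1 had 906 reads and 855 normalized counts, below the 966 to 1060.2 of the other samples of its group, and PSMB8 had 669 normalized counts, within the range of the others.

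PSMB9 was called in no comparison by the test used throughout. Its log2 fold change was -0.41 (SE 0.24, edgeR adjusted p = 0.391) in the tumor cell-rich step and -0.51 (SE 0.63, adjusted p = 0.781) in the lymphocyte-rich step. Without replicate 2 of group 3 the latter was -0.19 (SE 0.21, adjusted p = 0.7585), and the end comparison went from -0.61 (SE 0.74) to -0.29 (SE 0.27, adjusted p = 0.536). In limma over all samples, with a pseudocount of 1, the lymphocyte-rich step was -1.72 (SE 1.03, adjusted p = 0.483) and the end comparison -1.79 (SE 1.18, adjusted p = 0.332). The area comparison gave 0.32 (SE 0.18, adjusted p = 0.261) and, with DV200 as a covariate, 0.47 (SE 0.14, adjusted p = 0.0368), which was called. For PSMB9 over TAP1, group 1 ran from 1.53 to 3.86, group 2a from 1.17 to 3.60, group 2b from 1.13 to 1.90 and group 3, the library with 8 reads aside, from 0.816 to 1.87.

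NLRC5 (chromosome 2, 58550596 to 58630406), the class I transactivator, followed the area of the sample. Its normalized counts were 44.4, 102, 256, 174 and 111 in group 1 and 168, 101, 134, 147 and 316 in group 2a. In group 2b they were 292, 361 and 405 at the lowest, median and highest, and in group 3 they were 349, 368, 336, 373 and 361. The tumor cell-rich samples were spread widely, and replicate 5 of group 2a alone reached the range of group 2b. The lymphocyte-rich samples were close together, with an SD of 15.1 (n = 5) in group 3 against 80.6 (n = 5) in group 1. NLRC5 was 2.04-fold higher in group 2b than in group 2a (log2 fold change 1.03, SE 0.24, edgeR adjusted p = 0.00909) and 2.59-fold higher in group 3 than in group 1 (1.37, SE 0.34, adjusted p = 0.0220). The latter call was lost without replicate 5 of group 1 (1.30, adjusted p = 0.0548). The tumor cell-rich step gave 0.34 (SE 0.41, adjusted p = 0.72) and the lymphocyte-rich step 0.00 (SE 0.12, adjusted p = 0.998).

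All 4 calls of the end comparison were lost with DV200 as a covariate in edgeR, where 62 genes were called in place of 1593. DLA88 was then at 0.84 (SE 0.31, adjusted p = 0.216) and B2M at 0.52 (SE 0.35, adjusted p = 0.5002). PDIA3 was at 0.97 (SE 0.36, adjusted p = 0.223) and NLRC5 at 0.99 (SE 0.47, adjusted p = 0.323). DV200 was 64.5% to 71.2% in group 1 and 71.2% to 75.8% in group 3, so this fit can hardly separate it from the group.

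T cell markers moved with the calls between areas. The 10 markers summed to at most 1673 normalized counts in group 2a and to at least 3064 in group 2b. Of 9 tested, 8 were called higher there, where 16.5% of all genes tested were called. The 7 B cell and plasma cell markers summed to 137 to 1018 in group 2a and to 1068 to 1743 in group 2b, with 5 of the 6 tested called higher, and MS4A1 at 0 in all samples of group 2a. Within the tumor cell-rich samples the lowest NLRC5 value, 44.4 in replicate 1 of group 1, came with the lowest T cell marker sum, 62.4. The highest NLRC5 values there, 316 in replicate 5 of group 2a and 256 in replicate 3 of group 1, came with the 2 highest sums, 1673 and 2159. TAP1 was lowest, at 399, and highest, at 931, in those same replicates 1 of group 1 and 5 of group 2a. DLA88 was lowest, at 7838, in replicate 5 of group 1 (sum 251) and highest, at 17510.5, in replicate 4 (sum 1635). At the highest sum, 2159, DLA88 was 12311. Of 7 macrophage markers tested, C1QB and C1QC were called higher and the other 5 were not called, with sums of the list of 1137 to 4197 in group 2a and 3283 to 7764 in group 2b. In the end comparison 4 of 9 T cell, 2 of 5 B cell, 1 of 6 macrophage and 1 of 9 histiocyte markers were called higher and 1 of 9 keratinocyte markers lower. Of all genes tested, 13.9% were called there. CD4 was at 0 in all samples of groups 1 and 2a. The part of these cells in DLA88, TAP1 and NLRC5 was not tested. When group 2b was cut to its 2 samples of single dogs, none of the 3 was called (adjusted p between 0.236 and 0.293), while the log2 fold changes were 0.69, 0.80 and 1.01. With only the 4 pooled samples all 3 were called, at 0.75, 0.73 and 1.054.

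**Figure D4:**
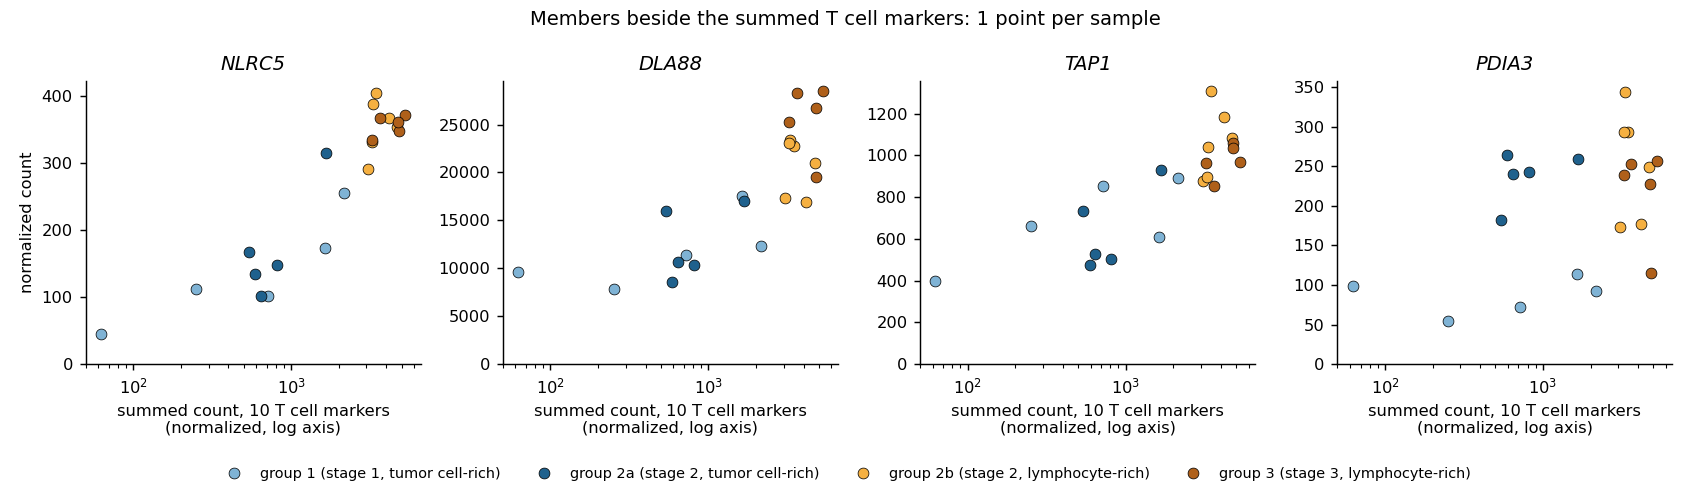
Normalized counts of NLRC5, DLA88, TAP1 and PDIA3 against the summed normalized counts of 10 T cell markers (log axis), with 1 point per sample coloured by group. The lymphocyte-rich samples lie to the right, at marker sums of 3064 or more, and PDIA3 separates group 1, at 113 or less, from group 2a at marker sums that overlap.

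The stage step was then compared between areas, as the difference of the step from group 1 to group 2a and the step from group 2b to group 3, in 1 fit of all 4 groups. The former joins stages 1 and 2 and the latter stages 2 and 3. Area and the stages joined therefore cannot be told apart in this difference. DLA-79 and PDIA3 were called, 2 of 10, where 5.34% of 12505 genes were called. For PDIA3 the steps differed by 1.69 on the log2 scale (SE 0.32, edgeR adjusted p = 0.00699), from steps of 1.47 and -0.22 (SE 0.22). For DLA-79 they differed by 4.17 (SE 0.90, adjusted p = 0.0123), from 2.26 and -1.91. B2M gave 1.20 (SE 0.35, adjusted p = 0.0501), just missing the threshold, and the other 7 genes had adjusted p of 0.72 or more. Both calls held without any 1 of the 21 libraries and with the replicate number as a block, and both were lost with DV200 as a covariate (adjusted p = 0.0833 for DLA-79 and 0.0564 for PDIA3), where the differences were 3.90 (SE 1.04) and 1.68 (SE 0.41). In the same test 2 of 9 keratinocyte markers were called lower (PKP1 and PPL), and of 9 histiocyte markers LYZ and DLA-DRA were called higher and CDH1 lower. Their part in the results for PDIA3 and DLA-79 was not tested.

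The other interferon-inducible proteasome genes were higher in group 3 than in group 1. Results of the alternatives are not given for single genes outside the 10, here and below. With DV200 as a covariate, 62 of all genes were called in the end comparison in place of 1593. PSMB8 averaged 721 ± 108 normalized counts (SD, n = 5) there and 443 ± 113 (SD, n = 5) in group 1, or 0.70 on the log2 scale (SE 0.19, edgeR adjusted p = 0.0296). PSMB10 had 584 ± 80.7 (SD, n = 5) against 277 ± 90.3 (SD, n = 5), or 1.08 (SE 0.22, adjusted p = 0.00887), with no overlap. PSMB5, the constitutive subunit whose place PSMB8 takes, was lower in group 3, at 570.4 ± 53.4 (SD, n = 5) against 892 ± 122 (SD, n = 5), or -0.64 (SE 0.15, adjusted p = 0.0155). It was also lower in group 2b than in group 2a (-0.40, SE 0.13, adjusted p = 0.0494).

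Of the 11 proteasome and peptide-supply genes tested in each comparison, these were 2 called higher and 1 lower in the end comparison (list median -0.21), 0 and 1 in the area comparison (-0.13), and 0 in either direction in the tumor cell-rich (0.09) and lymphocyte-rich (0.10) steps. Of all genes tested, 13.9% were called in the end comparison, 16.5% in the area comparison, and 0.527% and 0.111% in these steps. The trimming peptidases ERAP1 and ERAP2 were called nowhere. Group 3 averaged 172.6 ± 29.7 (SD, n = 5) for ERAP1 and group 2b averaged 236 ± 49.5 (SD, n = 6) (-0.45, SE 0.17, edgeR adjusted p = 0.289). LNPEP, an endosomal aminopeptidase that trims cross-presented peptides, averaged 46.4 ± 18.8 (SD, n = 5) at stage 1 and 83.2 ± 27.1 (SD, n = 5) at stage 2 in the tumor cell-rich groups, and in the lymphocyte-rich groups 47.3 ± 15.7 (SD, n = 6) at stage 2 and 18.4 ± 14.1 (SD, n = 5) at stage 3. Its stage steps, which differ in area and in the stages they join, differed by 2.20 (SE 0.58, edgeR adjusted p = 0.033). Neither step was called alone (adjusted p = 0.211 and 0.237).

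Among 6 further loading chaperones tested, TAPBPL, a relative of tapasin that edits peptides, was called higher in group 3 than in group 1, at 97.0 ± 24.1 (SD, n = 5) against 48.2 ± 9.47 (SD, n = 5) (1.00, SE 0.23, edgeR adjusted p = 0.0164). Of all genes tested, 13.9% were called in that comparison. In the area comparison TAPBPL had 0.79 (SE 0.26, adjusted p = 0.0558). The lectin chaperones were not called in any comparison: calreticulin (CALR) had log2 fold changes from -0.18 to 0.08 and calnexin (CANX) from -0.21 to 0.24. The median of the list was -0.03 and 0.09 in the tumor cell-rich and lymphocyte-rich steps, -0.05 in the area comparison and 0.00 in the end comparison. UGGT1, which checks folding, had 0.22 (SE 0.12, adjusted p = 0.459) in the lymphocyte-rich step, and P4HB, a disulfide isomerase, had -0.23 (SE 0.21, adjusted p = 0.623) in the tumor cell-rich step.

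**Figure D5:**
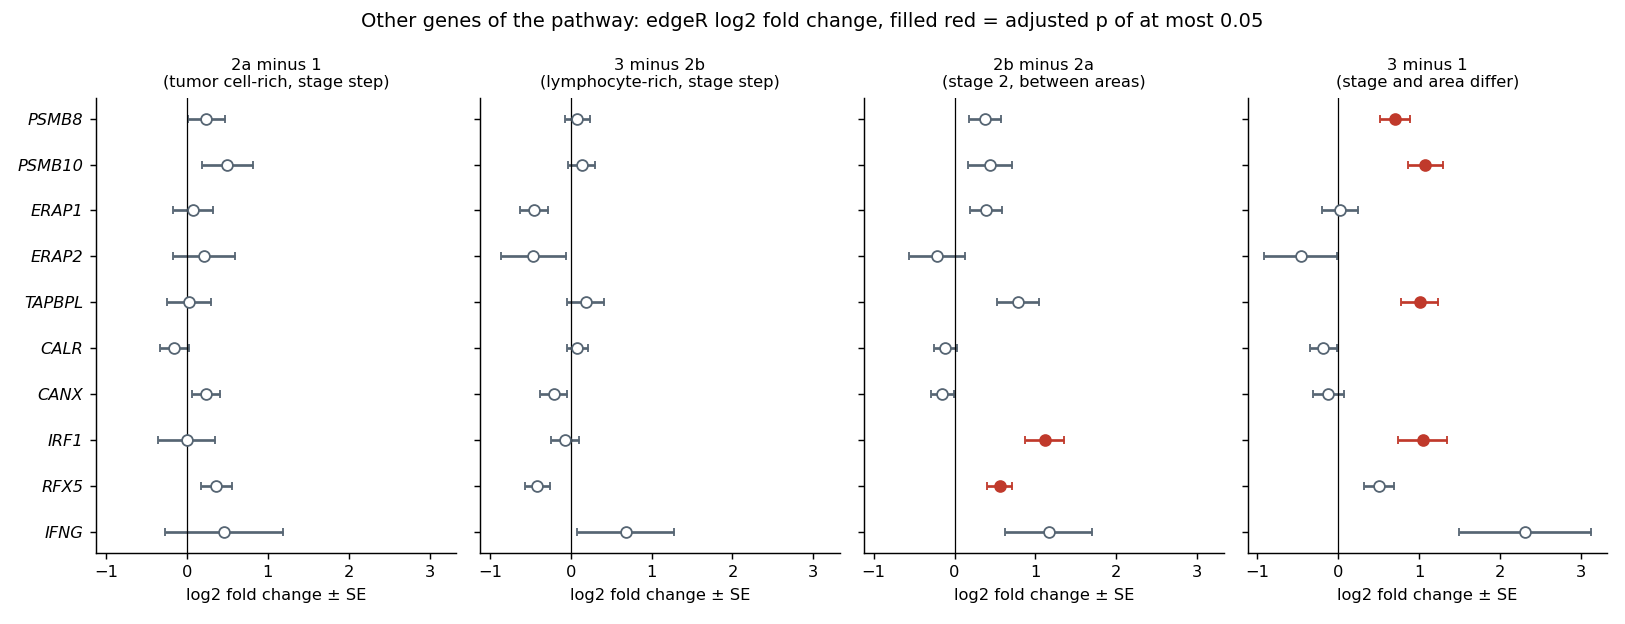
The log2 fold change of 10 other genes of the pathway in the 4 comparisons (horizontal axis, edgeR, bars are ± 1 SE), with filled red points for an adjusted p of at most 0.05. IRF1 is red in the area and end comparisons, RFX5 in the area comparison, PSMB8, PSMB10 and TAPBPL in the end comparison, and none in the stage steps.

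Of 18 regulators of class I tested, 6 were higher in group 2b than in group 2a and 0 lower, with a list median of 0.33, where 16.5% of all genes were called. In the end comparison 4 were higher and 1 lower, with a median of 0.24, where 13.9% of all genes were called. In the tumor cell-rich and lymphocyte-rich steps 0 were called, with medians of -0.01 and -0.11, and the smallest p belonged to IRF9 in the former (-0.57, SE 0.19, edgeR adjusted p = 0.142) and to NFKB1 in the latter (-0.43, SE 0.13, adjusted p = 0.217). IRF1, which binds the interferon-response element of class I promoters, averaged 1995 ± 418 normalized counts (SD, n = 6) in group 2b against 919 ± 345 (SD, n = 5) in the tumor cell-rich areas of that stage (1.11, SE 0.24, edgeR adjusted p = 0.00592), and 1902 ± 382 (SD, n = 5) in group 3 against 924 ± 409 (SD, n = 5) in group 1 (1.04, SE 0.30, adjusted p = 0.0369).

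IRF8, a factor of B cells and dendritic cells, showed 1.98 (SE 0.25, edgeR adjusted p = 0.000147) and 1.36 (SE 0.33, adjusted p = 0.0186) in the same comparisons. CIITA, the class II counterpart of NLRC5, was called in the area comparison (0.86, SE 0.15, adjusted p = 0.00183) and had 0.68 (SE 0.27, adjusted p = 0.118) in the end comparison. RFX5, part of the enhanceosome that NLRC5 joins, was higher in group 2b than in group 2a (0.56, SE 0.16, adjusted p = 0.0286) and had 0.51 (SE 0.19, adjusted p = 0.0906) in the end comparison. NFYB, another part of that complex, was lower in group 3 than in group 1 (-0.84, SE 0.23, adjusted p = 0.0302).

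Interferon gamma itself (IFNG) was scarce. The tumor cell-rich groups averaged 10.8 ± 7.81 normalized counts (SD, n = 5) at stage 1 and 14.7 ± 11.6 (SD, n = 5) at stage 2, the lymphocyte-rich ones 33.5 ± 22.1 (SD, n = 6) at stage 2 and 54.0 ± 52.3 (SD, n = 5) at stage 3, and none of its differences was called (edgeR adjusted p of 0.0769 or more). Of its 9 tested pathway genes, 4 were higher and 1 lower in group 2b than in group 2a (list median 1.16), 3 were higher and 0 lower in group 3 than in group 1 (1.59), and 0 were called in the tumor cell-rich (0.46) or lymphocyte-rich (-0.39) step. Over all genes tested the shares called were, in the same order, 16.5%, 13.9%, 0.527% and 0.111%.

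IDO1, a tryptophan-degrading enzyme, was higher by 2.64 (SE 0.51, edgeR adjusted p = 0.00275) in group 2b than in group 2a and by 3.798 (SE 0.79, adjusted p = 0.00998) in group 3 than in group 1. The chemokine CXCL10 was higher by 1.63 (SE 0.49, adjusted p = 0.0343) and 3.27 (SE 0.65, adjusted p = 0.00797), all on the log2 scale. SOCS1, the feedback inhibitor, was called between areas of stage 2 (1.74, SE 0.32, adjusted p = 0.00199), and the receptor chain IFNGR1 was lower there (-0.82, SE 0.22, adjusted p = 0.0217). GBP5, a guanylate-binding protein, was higher in group 3 than in group 1 (1.59, SE 0.48, adjusted p = 0.0449). The kinase JAK2 had a larger step from group 1 to group 2a than from group 2b to group 3 (difference 1.79, SE 0.45, adjusted p = 0.0246), at 143 ± 45.3 (SD, n = 5) in group 2a against 57.4 ± 23.9 (SD, n = 5) in group 1 (adjusted p = 0.0672).

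Molecules built like class I heavy chains but with other tasks moved in opposite directions between areas. HFE, which pairs with B2M and takes part in iron regulation, was lower in group 2b than in group 2a, at 78.1 ± 16.9 (SD, n = 6) against 228 ± 84.7 (SD, n = 5) (-1.55, SE 0.25, edgeR adjusted p = 0.000948). It was also lower in group 3 than in group 1 (-1.61, SE 0.28, adjusted p = 0.00484). FCGRT, the neonatal Fc receptor heavy chain, was higher in the same comparisons (1.03, SE 0.24, adjusted p = 0.00891 and 1.17, SE 0.33, adjusted p = 0.0338). In the stage steps 0 of 3 and 0 of 4 tested were called, where 0.527% and 0.111% of all genes tested were called. CD1D and AZGP1 had the smallest p in lymphocyte-rich areas. MR1 and PROCR were not analysed here.

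Genes of cells that read class I were counted too. In the area comparison, 4 of 8 tested were higher and 0 lower (median 1.86), with CD160 at 3.12 (SE 0.52, edgeR adjusted p = 0.00118), CD8B, a coreceptor chain of cytotoxic T cells, at 2.43 (SE 0.36, adjusted p = 0.00057), KLRK1 at 2.11 (SE 0.41, adjusted p = 0.00272) and NKG7 at 1.90 (SE 0.40, adjusted p = 0.00535). In the end comparison 4 of 8 were higher (median 2.01), with KLRK1 at 3.10 and the cytotoxic protease GZMB at 2.58, and CD244 was lower at -1.51 (SE 0.43, adjusted p = 0.0343). In the stage steps 0 of 5 and 0 of 8 tested were called. Over all genes tested, 16.5% were called in the area comparison and 13.9% in the end comparison. The tumor cell-rich and lymphocyte-rich steps called 0.527% and 0.111% of all genes. KLRC1 and, in the interferon list, CXCL9 were not analysed here.

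Pairs of the 10 genes with a known link were correlated on log2 of the normalized count plus 1, within the 10 tumor cell-rich and within the 11 lymphocyte-rich samples, which makes 12 relations. None passed adjustment. The smallest permutation p belonged to TAP1 with TAP2 in tumor cell-rich samples (Pearson r = 0.76, p = 0.0139, adjusted p = 0.1003, Spearman rho = 0.67, p = 0.0397, adjusted p = 0.159). Without the 2 samples farthest from the median of TAP1, r was 0.58. NLRC5 with TAP1 gave r = 0.72 in tumor cell-rich samples (permutation p = 0.0167, adjusted p = 0.1003, rho = 0.64, p = 0.0532, adjusted p = 0.159) and 0.64 in lymphocyte-rich samples (p = 0.0353, adjusted p = 0.121, rho = 0.46, p = 0.156, adjusted p = 0.233). Without the 2 samples farthest from the median of NLRC5, r fell to 0.34 and 0.27. Leaving these out also narrows the range of NLRC5, so the fall does not show that the relation rested on them.

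NLRC5 with B2M gave r = 0.57 (permutation p = 0.0809, adjusted p = 0.139) in tumor cell-rich and 0.62 (p = 0.0425, adjusted p = 0.121) in lymphocyte-rich samples. NLRC5 with DLA88 gave 0.60 (permutation p = 0.0606, adjusted p = 0.121) and 0.40 (p = 0.230, adjusted p = 0.251). DLA88 with B2M gave 0.62 (permutation p = 0.0598, adjusted p = 0.121) and 0.47 (p = 0.149, adjusted p = 0.199). After each group was centred on its mean, DLA88 with B2M gave 0.79 in tumor cell-rich and 0.93 in lymphocyte-rich samples. In the latter the ratio of the 2 genes had differed between groups 2b and 3. This pair is 1 of 12 relations run in this way. No p is given for it, since the permutation of centred values took no account of the groups. TAP1 with its neighbor PSMB9 gave 0.11 (permutation p = 0.751, adjusted p = 0.751) in tumor cell-rich samples and 0.47 (p = 0.129, adjusted p = 0.194) in lymphocyte-rich ones, and the latter went to -0.04 without 2 samples, one of them replicate 2 of group 3.

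As a description with no test, each gene was set against 12505 genes by Pearson's r over the 21 samples after centring each group on its mean. The samples share their libraries, and depth and tissue mix act on all genes in them. DLA88 was closest to PSMB10 (r = 0.85), B2M (0.80) and IFI35 (0.80), an interferon-induced gene. TAP1 was closest to LY9 (0.92), a surface receptor of lymphocytes, and to LOC481472 (0.89) and LOC119876786 (0.88), and NLRC5 to GPRIN3 (0.95), ZAP70 (0.93), the T cell receptor kinase, and CDYL2 (0.91). TAP2 was closest to PTPRC (0.80), the pan-leukocyte phosphatase CD45, OGFR (0.78) and REEP3 (0.78).

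The remaining genes had their closest patterns outside antigen presentation and lymphocyte genes. B2M was closest to ACTB (0.89), CTNNA1 (0.84) and NUCB2 (0.82), PDIA3 to PRRC2C (0.89), EIF5B (0.88) and CCAR1 (0.86), and TAPBP to RAB11FIP2 (0.85) and FAM32A (0.81). PSMB9 was closest to TRAPPC9 (0.84), LOC102153058 (0.81) and RPL22 (0.81), DLA-64 to SEC24C (0.81), TTC7B (0.75) and DAG1 (0.73), and DLA-79 to MIR1842 (0.84), FAM172A (0.83) and LEO1 (0.82). Among the 10 genes themselves, the highest values were 0.80 for DLA88 with B2M, 0.77 for TAP1 with NLRC5, 0.72 for TAP1 with TAP2, 0.71 for TAP2 with NLRC5 and 0.71 for B2M with PDIA3.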

How the data were processed

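RNA of 21 CCH samples in 4 groups was measured by QuantSeq 3′ sequencing. Groups came from the sample labels and columns from their sample identifiers. For every gene and sample the authors deposited the number of reads as a raw count, obtained per the labels with Cutadapt, STAR and featureCounts, on UU_Cfam_GSD_1.0 per the study's methods. Versions and the handling of reads with several matches or of strand are not given in the sources used here. Each table also has a deposited signal, the count after the authors' DESeq2 normalization. Within a sample it was 1 constant factor (0.855 to 1.27) away from the raw value. The authors' own fold changes and p-values were not used. All 10 genes matched RefSeq positions by symbol. Samples were separate tumors, and the smallest chi-square per degree of freedom between 2 samples of a group was 7.98, so no pair of libraries differed by sampling noise alone.

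Counts of 2 groups at a time were tested in edgeR 4.0.16 (TMM, quasi-likelihood F-test, R 4.3.3) over genes with at least 10 counts in at least 5 samples, with Benjamini-Hochberg adjustment over all genes tested. SEs are the log2 fold change divided by the square root of F. Correlations used 100000 permutations, two-sided. Alternatives were DESeq2 1.42.0, other size factors, no filter, limma 3.58.1 with pseudocounts of 1 and 0.5, all groups in 1 fit, DV200 as covariate, the replicate number as a block, a log2 fold change of at least 1, only pooled or only single-dog samples, and leaving out each sample. The tests were tried on simulated counts. The 10 genes and all lists were chosen with earlier results of these data known. Named were the 10 genes, 10 further pathway genes given throughout, per list and comparison up to 4 called genes with the largest change or, with none called, the 2 with the smallest p, and the 3 closest patterns of each gene; some genes that this rule names are not reported here. The remaining steps ran in Python 3.11.15 with scipy 1.17.1 and pandas 2.3.3.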

Additional observations from a re-analysis of the deposited data

Results flagged for a closer look

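In 40 groups of samples (10 genes in 4 groups), 2 samples stood apart from the others of their group by Dixon's criterion at the 95% level, which chance alone meets in about 1 group in 20. Both were in PDIA3: replicate 1 of group 2a had 182 normalized counts where the next sample had 241, and replicate 1 of group 3 had 115 where the next had 228. Without replicate 1 of group 3, the difference of the PDIA3 stage steps was 1.52 on the log2 scale and was still called (edgeR).

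The step from group 1 to group 2a differed from that from group 2b to group 3 for 2 genes by the interaction test in edgeR. The former was larger by 1.69 for PDIA3 (adjusted p = 0.00699) and by 4.17 for DLA-79 (adjusted p = 0.0123) on the log2 scale. The steps differ both in area and in the stages they join. For DLA-79 the samples of group 3 held 1 to 16 reads and those of group 1 held 2 to 23.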

How the results depend on the processing

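Over 1044 alternative fold changes, no called gene changed direction. The number of the 10 genes called in the tumor cell-rich step was 1, where 59 of all genes tested were called. It was 3 with DESeq2, where 632 of all genes were called, and 0 with DV200 as a covariate, where 0 of all genes were called. With single samples left out it was 0 to 1, where 0 to 103 of all genes were called. All 4 groups in 1 fit called PDIA3 and DLA-79, and the replicate block called neither. In the area comparison the number was 3, against 0 when pools were left out of group 2b, where 111 of all genes were called in place of 1909. Of these 3 genes only NLRC5 also reached a change of 1 on the log2 scale. In the end comparison the number was 4, against 0 with DV200, where 62 were called in place of 1593. With samples left out it was 2 to 4 there, where 860 to 1641 of all genes were called. For the difference of the steps it was 2, against 0 with DV200, where 60 were called in place of 668. The lymphocyte-rich step had 0 throughout.

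The replicate block lost PDIA3 in the tumor cell-rich step (1.49, edgeR adjusted p = 0.134) and, in the end comparison, B2M (0.91, adjusted p = 0.0566). It added DLA-79 in the area comparison (-1.45, adjusted p = 0.0205). Equal numbers came from different dogs, and 1 of 5 pairs per comparison deviated together (correlation over 0.1), so the samples share only a number. DESeq2 also called B2M in the tumor cell-rich step (adjusted p = 0.0359) and in the difference of the steps (adjusted p = 0.0203), where leaving out 1 sample called it in 6 of 21 cases.

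Genes called among all tested went from 59 to between 0 and 632 in the tumor cell-rich step, from 13 to between 0 and 185 in the lymphocyte-rich step, from 1909 to between 111 and 2372 in the area comparison, from 1593 to between 62 and 2527 in the end comparison, and from 668 to between 60 and 1072 for the difference of the steps. The cause was not tested.

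Signs changed only for genes that were not called, in 22 alternatives and 45 fits with a sample left out. In the tumor cell-rich step these were, with DV200, DLA88 (-0.3014) and NLRC5 (-0.2276), and TAP2 with upper-quartile factors (0.0051) and without a filter (0.0232). In the lymphocyte-rich step DLA-64 went to -0.2144 and -0.2187 with limma at pseudocounts of 1 and 0.5, -0.3054 with the replicate block and -0.1108 with single-dog samples. TAPBP went to -0.024 and -0.0241 with limma, -0.0081 with DV200, -0.0721 with the block and -0.0109 with single-dog samples. NLRC5 went to 0.0049 with DESeq2, 0.0046 with its factors, 0.0098 with limma, 0.004 with all groups and 0.034 with single-dog samples. PDIA3 in the area comparison went to -0.0212 with single-dog samples, and with DV200 the differences of the steps were -0.0323 for TAP1 and -0.0206 for NLRC5. Leaving out 1 sample gave ranges through 0 in the tumor cell-rich step for DLA88 (-0.038 to 0.2916), TAP1 (-0.2902 to 0.0086) and TAP2 (-0.1101 to 0.086), in the lymphocyte-rich step for TAPBP (-0.2246 to 0.1438) and NLRC5 (-0.0499 to 0.0421), in the area comparison for TAPBP (-0.1261 to 0.1602) and PDIA3 (-0.0011 to 0.1845), in the end comparison for TAPBP (-0.0347 to 0.3818), and for the difference of the steps in DLA-64 (-0.3635 to 0.668), TAP1 (-0.1726 to 0.1256), PSMB9 (-0.2202 to 0.3726) and NLRC5 (-0.0112 to 0.6749).

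Stage, dog, age and RNA quality cannot be told apart where they differ together between groups, and stage and area cannot be told apart in the end comparison. In the area comparison, area cannot be told apart from the RNA quality number of the study's sample list. In the difference of the steps, area cannot be told apart from which stages the step joins. DLA-79 rested on few reads at this depth, where DESeq2 gave no adjusted p in the lymphocyte-rich step, and the split of reads among the heavy chains depends on counting options that are not given in the sources used here.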
